A study of Mus musculus with 11 samples.

Results

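The interval by background interaction was measured as the difference between a pair of differences in chromatin accessibility. It asks whether exchanging a segment of mouse chromosome 13 between the C57BL/6J and DBA/2J strains changed accessibility elsewhere in the genome by a different amount on each strain background. ATAC-seq, which uses the Tn5 transposase to mark accessible DNA, was run on 11 libraries from 4 lines of mouse embryonic stem cells. B6 is C57BL/6J (line B6 5-1, 3 libraries) and D2 is DBA/2J (line D2 5-5, 3 libraries). B6-13D2 (line QJ 6-1, 2 libraries) carries the DBA/2J segment on the C57BL/6J background, with the genotype B6.D2-(rs30079041-rs51756099)/Bakr. D2-13B6 (line XE 2-4, 3 libraries) carries the C57BL/6J segment on the DBA/2J background. Its sample labels give the genotype D2.B6-(rs29224292-rs13469455)/Bakr, while the series text names rs51756099 as the second marker, so the far end of the segment in that line is not settled here. All 4 lines grew in serum with LIF, the MEK inhibitor PD0325901 and the GSK3 inhibitor CHIR99021. Each group is 1 cell line with technical replicates, so p-values measure the spread between libraries of one line, and a difference of clone cannot be told apart from a difference of genotype.

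The interaction is (B6-13D2 minus B6) minus (D2 minus D2-13B6), on the log2 scale. Each bracket stands for the effect of holding the DBA/2J segment in place of the C57BL/6J segment, first on the B6 background and then on the D2 background. The labels of B6-13D2 and D2-13B6 name different first markers as well as different second ones. The brackets may therefore not exchange the same stretch, and a difference in segment ends cannot be told apart from a difference of background. A positive value means that the DBA/2J segment went with more of a gain, or less of a loss, on the B6 background. The regions described lie off chromosomes 11, 13, X and Y, and they number 213345 of the 248336 regions in the table, on 17 autosomes. A filter on low counts left 212338 of them for testing, and 165 held no count in any library.

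As background, mouse chromosome 13 holds clusters of genes for KRAB zinc finger proteins. These proteins bind DNA, often in transposable elements, and recruit the corepressor TRIM28 and histone methyltransferases that form heterochromatin. A protein encoded in the segment can act in trans on regions of other chromosomes. The contrast measures whether such an effect depends on the rest of the genome, and by its arithmetic it also takes in any difference confined to 1 of the 4 lines.

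Library totals ranged from 15198496 to 43042955 counts. The normalisation factors of D2-13B6 (TMM, a trimmed mean that scales libraries to one another) were 0.894, 0.769 and 0.997, against 0.969 to 1.10 in the other 8 libraries. Its libraries 1 and 2 lay below that range and library 3 lay inside it. Regions within 1000 bp of a gene start took 45.4%, 45.2% and 40.9% of the D2-13B6 counts, against 38.4% to 39.5% in B6, 38.9% to 39.0% in B6-13D2 and 42.2% to 44.9% in D2. Leaving out D2-13B6 library 2, with the lowest factor, gave 9810 interaction calls, and leaving out library 3 gave 24287.

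Before the counts, 6 windows show the letters that the results turn on. Each is the middle 300 bases of a called region, from the plus strand of the C57BL/6J reference GRCm38 (mm10). The DBA/2J bases are not given here. Capitals in the first 4 windows mark TGANTCA, the binding letters of AP-1, a dimer of FOS and JUN family proteins. These letters read the same on both strands apart from the middle base. The first pair of windows was chosen after its values were seen, to show 3 matches close together, and the other 4 regions were named by rule.
chr16:78532005-78532304, positive interaction: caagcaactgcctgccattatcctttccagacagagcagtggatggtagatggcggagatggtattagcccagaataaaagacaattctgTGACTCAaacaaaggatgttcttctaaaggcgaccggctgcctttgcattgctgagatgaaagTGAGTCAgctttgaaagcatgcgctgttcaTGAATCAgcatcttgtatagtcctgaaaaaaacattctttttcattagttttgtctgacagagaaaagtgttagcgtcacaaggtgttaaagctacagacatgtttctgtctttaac
chr3:63556788-63557087, positive interaction: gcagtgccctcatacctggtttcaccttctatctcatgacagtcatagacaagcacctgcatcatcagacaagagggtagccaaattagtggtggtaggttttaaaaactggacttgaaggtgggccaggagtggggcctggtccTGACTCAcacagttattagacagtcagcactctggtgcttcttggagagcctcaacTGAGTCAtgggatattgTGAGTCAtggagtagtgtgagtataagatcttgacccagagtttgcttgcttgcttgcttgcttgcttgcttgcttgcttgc
chr5:58190641-58190940, positive interaction: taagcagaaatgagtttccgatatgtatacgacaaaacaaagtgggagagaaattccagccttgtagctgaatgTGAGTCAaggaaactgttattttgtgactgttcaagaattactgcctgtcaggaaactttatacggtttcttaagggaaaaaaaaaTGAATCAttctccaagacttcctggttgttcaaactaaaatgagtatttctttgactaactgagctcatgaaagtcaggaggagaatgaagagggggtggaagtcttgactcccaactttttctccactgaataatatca
chr6:137722401-137722700, positive interaction: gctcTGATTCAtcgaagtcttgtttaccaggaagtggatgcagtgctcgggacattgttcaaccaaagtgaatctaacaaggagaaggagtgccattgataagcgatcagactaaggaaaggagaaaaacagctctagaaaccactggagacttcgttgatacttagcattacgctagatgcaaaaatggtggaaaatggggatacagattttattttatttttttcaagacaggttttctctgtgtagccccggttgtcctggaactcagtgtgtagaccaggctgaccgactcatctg
Capitals in the next pair mark a 16-base sequence shared by many regions that were less accessible in B6-13D2 than in B6.
chr15:51111704-51112003, negative interaction: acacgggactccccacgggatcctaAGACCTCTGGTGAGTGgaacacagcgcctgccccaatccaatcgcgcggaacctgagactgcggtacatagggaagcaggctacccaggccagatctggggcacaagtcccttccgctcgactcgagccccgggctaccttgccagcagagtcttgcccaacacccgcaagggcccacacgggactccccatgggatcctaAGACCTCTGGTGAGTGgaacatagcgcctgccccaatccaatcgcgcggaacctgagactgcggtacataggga
chr12:58858346-58858645, negative interaction: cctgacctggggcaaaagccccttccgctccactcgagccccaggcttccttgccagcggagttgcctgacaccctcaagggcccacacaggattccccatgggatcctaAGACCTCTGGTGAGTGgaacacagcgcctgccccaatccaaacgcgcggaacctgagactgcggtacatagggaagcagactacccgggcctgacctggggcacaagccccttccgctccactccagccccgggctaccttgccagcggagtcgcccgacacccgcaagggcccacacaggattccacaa
The window on chromosome 15 holds the 16 bases at 2 places, 201 bases apart.

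The interaction was called at 13418 regions, 6.32% of those tested, at an adjusted p under 0.05 (edgeR's quasi-likelihood test, Benjamini-Hochberg adjustment over all 246840 regions tested in the table, of which 6.54% were called). It was positive at 9659 (4.55%) and negative at 3759 (1.77%). The same fit called 12.7% of regions on chromosome 13 and 6.05% on chromosome 11. The median interaction was -0.03 over all regions tested, 1.32 over the positive calls and -1.15 over the negative calls. The smallest called value had a size of 0.76, and the median standard error over called regions was 0.34. An absolute log2 value of at least 2 was reached by 884 called regions. Regions with an adjusted p between 0.04 and 0.05 (2060) had a median absolute value of 1.07, and the 1844 between 0.05 and 0.06 had 1.03.

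The share of positive calls depended on the scaling. It was 71.99% with TMM and 83.0% with RLE size factors, but 51.1% with factors from promoter regions only and 39.7% with total counts. The median interaction of all regions moved to -0.14 and -0.20 under the last pair. No shared call changed sign under any of the 20 alternatives. Calls fell to 5341 without B6-13D2 library 1 and to 3869 without library 2, and to 6753 without D2 library 1 and 7349 without B6 library 1. Called regions were spread over all chromosomes, at 5.49% to 6.97% of the regions tested on each. Among 447 bins of 5 Mb, the share called ran from 1.43% to 12.6%, with a median of 6.25%.

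Most calls came from the D2 background. The effect of the segment was called on the B6 background at 850 regions (0.4%) and on the D2 background at 48937 (23%). The B6 background had fewer libraries (3 and 2, against 3 and 3) and lower totals, 15198496 to 27293140 counts against 29172484 to 43042955. With libraries thinned to the smallest total, the effect was called at 270 regions on the B6 background and 32628 on the D2 background. Of the interaction calls, 12100 (90.2%) had an effect called on the D2 background only, 281 on the B6 background only, 20 on both with opposite signs, 24 on both with the same sign and 993 on neither. The first class held 96.7% of positive calls and 73.5% of negative calls. Since a called component is part of the interaction, these classes describe the calls and are no test of them.

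**Figure D1:**
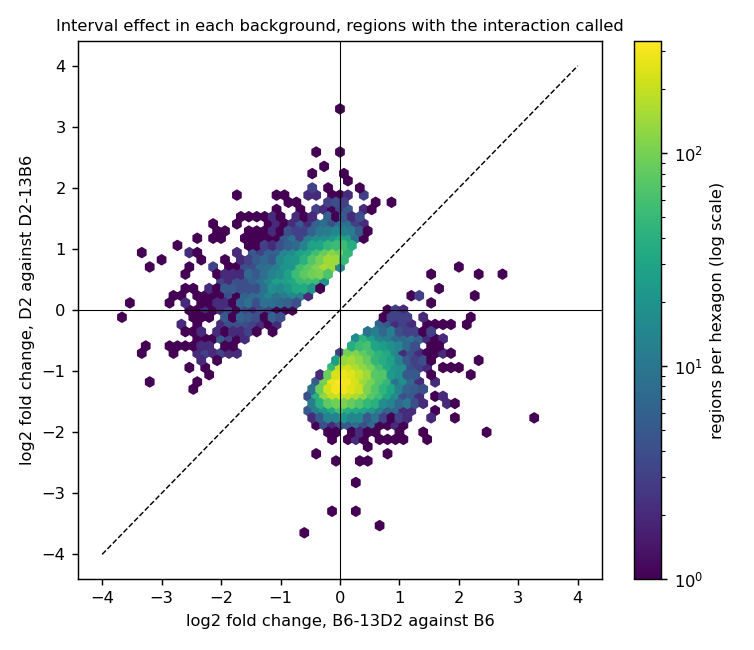
Effect of the DBA/2J segment in each background at regions with the interaction called (x axis: log2 fold change of B6-13D2 against B6; y axis: the same for D2 against D2-13B6; colour: regions per hexagon on a log scale). The dashed diagonal marks equal effects, and 13399 of 13418 regions lie within the axes; most sit near 0 on the x axis and away from 0 on the y axis.

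The class called on the D2 background only had a common pattern across the lines. At its 9339 positive regions the median normalised CPM (counts scaled to a common library size with the TMM factors) was 1.70 in B6, 1.88 in B6-13D2, 3.28 in D2 and 7.45 in D2-13B6. At its 2761 negative regions the medians were 5.29 in B6, 4.46 in B6-13D2, 5.69 in D2 and 3.19 in D2-13B6. D2-13B6 was therefore the high line at the former and the low line at the latter. Over all calls, D2-13B6 was the line farthest from the other 3 at 92.3% of positive regions and at 52.0% of negative regions, against 48.9% of all regions tested. The sign of a call, made from the same 4 lines, fixes on which side the farthest line lies, so these shares describe the calls and their direction is no result. All 3 D2-13B6 libraries lay above the other 8 at 91.3% of positive calls, against 14.5% of all regions, and below them at 46.8% of negative calls, against 8.57%. The calls were made from these same libraries, so these shares too describe the calls and are no test of them.

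**Figure D2:**
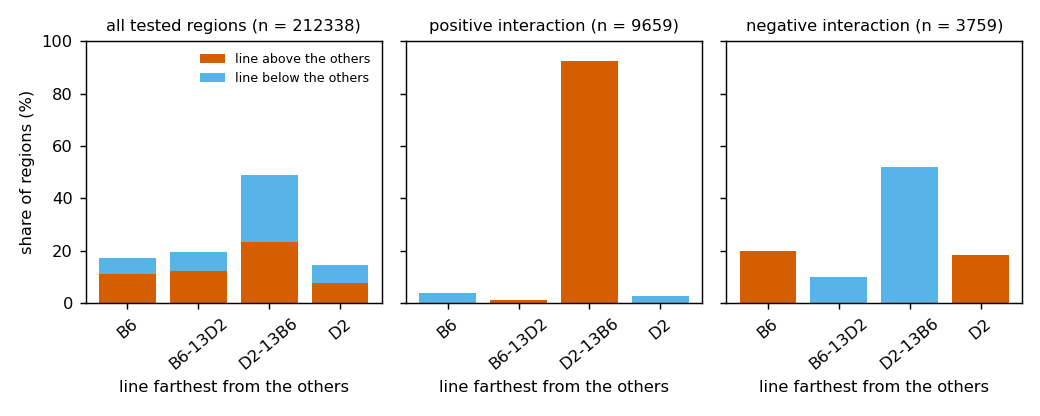
Share of regions (y axis, percent) at which each line was the one farthest from the other 3 (x axis), for all tested, positive and negative regions. Orange bars count regions where that line lay above the others and blue bars where it lay below; D2-13B6 above the others makes up 92.3% of the positive panel.

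The farthest line was more mixed among negative calls than among positive ones. B6 was the farthest line at 19.9% of negative calls (17.2% of all regions tested), D2 at 18.2% (14.4%) and B6-13D2 at 9.84% (19.6%). At the 243 negative regions called on the B6 background only, median CPM was 3.62 in B6, 1.18 in B6-13D2, 1.39 in D2 and 1.39 in D2-13B6. Their median content of soft-masked bases, which the reference marks as repeats, was 80.4%.

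Positive and negative calls also differed in where they lay. Positive regions were narrow, with a median width of 469 bp against 550 bp over all regions tested. They lay in introns in 49.6% of cases (39.9% of all) and within 1000 bp of a gene start in 10.6% (15.4% of all). Their median soft-masked content was 9.92%, against 15.6%. Negative regions were wide, with a median of 978 bp, and 51.2% were intergenic against 39.8% of all. More than 50% of the bases were soft-masked at 34.2% of negative regions, 3.99% of positive regions and 16.7% of all. The share of negative calls went from 0.584% of regions with no masked base to 4.19% of those over 75% masked, while the share of positive calls went from 7.45% to 0.617%. Reads from repeats can map to several places, and how these were counted is not given in the sources used here.

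The AP-1 letters separated the positive calls from the rest more than any other of the 20 motifs searched on both strands. TGANTCA occurred in the middle 300 bases of 50.3% of positive regions, 5.40% of negative regions and 13.8% of all regions tested. Of 47807 uncalled regions in the middle of the positive calls' range of mean accessibility, 15.8% held it. Within promoter regions the share was 35.5% of positive calls against 8.78% of all. Over the 20 alternatives the share among positive calls stayed between 42.5% and 58.8%, and that among negative calls was 1.89% at a minimum fold of 1.5.

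The share of positive calls rose with the number of AP-1 matches. It was 2.62% with no match, 14.4% with 1, 30.5% with 2 and 38.2% with 3 or more. Median CPM in D2-13B6 was 1.64, 2.78, 5.56 and 7.496 across these groups, and in D2 it was 1.74, 2.02, 2.69 and 3.41. In B6 it was 1.81, 1.56, 1.49 and 1.55, and in B6-13D2 it was 1.79, 1.52, 1.39 and 1.52. The median rose with the number of matches in both D2 background lines, and it did not in either B6 background line. The matches also sat nearer the middle of the window: 52.4% of those in positive regions were within 50 bp of the centre, against 42.4% in all other regions. Both common forms were frequent, TGACTCA in 41.5% of positive regions (10.1% of all) and TGAATCA in 13.9% (4.46%), each counted on both strands.

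Regions holding the letters took 9.62%, 9.75% and 9.77% of the counts in the B6 libraries and 9.59% and 9.63% in B6-13D2. They took 11.1%, 11.99% and 11.4% in D2 and 15.2%, 16.6% and 15.3% in D2-13B6. The 3 D2-13B6 libraries lay above all 3 D2 libraries, and these above all 5 libraries of the B6 background. The same order held when the positive regions were left out: 8.24% to 8.48% on the B6 background, 8.91% to 9.45% in D2 and 10.8% to 11.4% in D2-13B6.

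**Figure D3:**
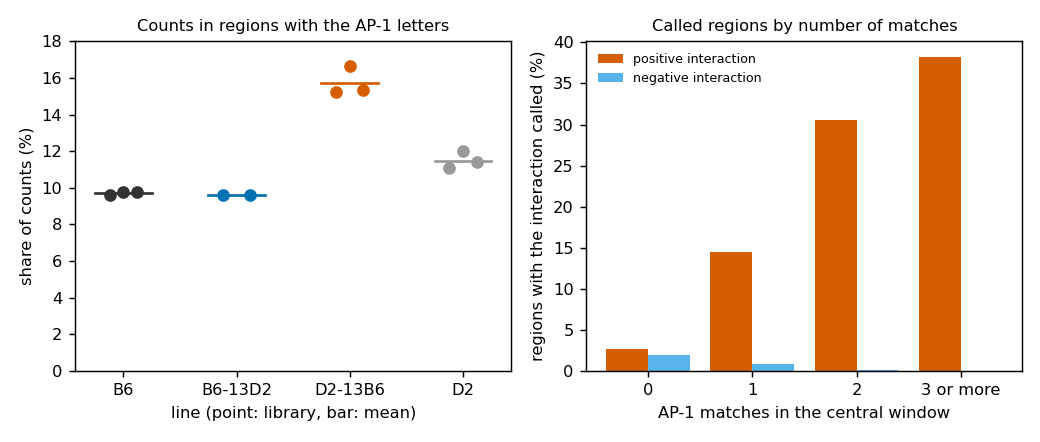
Left, share of counts (y axis, percent) in regions with the AP-1 letters by line, each point a library and each bar a mean; D2-13B6 sits at 15.2% to 16.6% and the B6 background lines below 10%. Right, share of regions called positive (orange) or negative (blue) by number of matches in the central window, with positive calls at 38.2% for 3 or more.

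Among the other motifs, RUNX letters (TGTGGTT) were in 12.1% of positive regions against 7.56% of all, and TEAD letters (ACATTCC) in 9.72% against 6.67%. The letters of factors active in pluripotent cells did not all go one way. The octamer bound by OCT4 (ATGCAAAT) was in 1.81% of positive regions against 3.24% of all, the ESRRB site (TCAAGGTCA) in 0.569% against 1.39% and KLF letters (CCACACCC) in 2.96% against 5.91%. SOX letters (AACAATG) were in 6.15% against 5.69%, and STAT letters (TTCCNGGAA) in 1.53% against 1.14%. CTCF letters were in 1.76% of negative regions against 7.04%. YY1 letters (AAGATGGCG) were in 5.27% of negative regions against 1.83%, and in 14.3% of the 273 negative regions with an effect called on the B6 background. These are shares of letters in the C57BL/6J reference and do not show binding.

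The region chr16:78531944-78532366, intergenic, held 3 AP-1 matches in the window printed above. Its CPM was 0.965, 0.976 and 1.01 in B6, 2.05 and 1.59 in B6-13D2, 2.36, 3.05 and 2.87 in D2 and 7.33, 10.1 and 5.57 in D2-13B6. All 3 D2-13B6 libraries were higher than the other 8. The interaction was 2.37 ± 0.37 (SE, edgeR adjusted p = 0.000108). The region chr3:63556788-63557089 read 1.13, 0.976 and 1.05 in B6, 1.77 and 1.94 in B6-13D2, 2.75, 3.48 and 3.01 in D2 and 8.36, 11.2 and 5.26 in D2-13B6. Its interaction was 2.23 ± 0.37 (SE, edgeR adjusted p = 0.000259).

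Effects of opposite sign on both backgrounds, each called, were found at 12 positive and 8 negative regions. The count was 7 under RLE scaling and 37 under scaling by total counts, and ran from 3 (without D2 library 1) to 31 (without D2-13B6 library 2) when single libraries were left out. At chr5:58190549-58191034, intergenic and 468340 bp from the protocadherin gene Pcdh7, CPM was 0.399, 0.122 and 0.35 in B6, 0.91 and 1.25 in B6-13D2, 1.48, 2.01 and 2.75 in D2 and 6.47, 7.3 and 3.47 in D2-13B6. The DBA/2J segment went with a higher value on the B6 background (1.76 ± 0.44 SE, edgeR adjusted p = 0.0396) and a lower one on the D2 background (-1.48 ± 0.23 SE, adjusted p = 8.88e-07). No libraries overlapped within either background, and the interaction was 3.24 ± 0.50. An intron of Myzap, a gene for a protein of cardiac cell junctions, behaved alike at chr9:71543113-71544296. Its values were 5.99, 6.34 and 5.87 in B6, 10.5 and 10.7 in B6-13D2, 6.98, 7.95 and 6.82 in D2 and 10.5, 14.7 and 9.49 in D2-13B6. Its interaction was 1.48 ± 0.26 (SE, edgeR adjusted p = 0.000489). Both lines whose segment came from the other strain were the high ones here. The third positive region, chr9:81720183-81720430, had an interaction of 3.21 ± 0.43.

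Among the negative regions of this class, chr6:60363076-60364896 lies in an intron of A530053G22Rik. It read 8.52, 10 and 11 in B6, 4.18 and 5.53 in B6-13D2, 12.3, 10.5 and 13.7 in D2 and 8.42, 9.64 and 7.19 in D2-13B6. B6-13D2 was the low line, and D2 exceeded D2-13B6 without overlap. The interaction was -1.55 ± 0.27 (SE, edgeR adjusted p = 0.000445). At chr1:3062365-3063318, intergenic and 152314 bp from Xkr4, the values were 3.96, 3.84 and 4.03 in B6, 2.18 and 1.74 in B6-13D2, 5.6, 5.46 and 7.68 in D2 and 4.18, 4.39 and 2.85 in D2-13B6. The interaction was -1.71 ± 0.32 (SE, edgeR adjusted p = 0.000889). At chr19:37251671-37252771 it was -1.96 ± 0.27. The interaction was called at all 6 regions named from this class under each of the 20 alternatives. Calls of both components were less stable, with 0 regions of opposite called effects at a minimum fold of 1.5 and 3 after thinning. On the B6 background the edgeR adjusted p was 0.0492 at the chromosome 1 region and 0.0326 and 0.0316 at those on chromosome 9. It was 0.00398 at the chromosome 6 region and 1.65e-05 at the chromosome 19 region.

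The next regions had an effect called on the B6 background and an unadjusted p over 0.05 on the D2 background. An intron of Snd1, a gene for a nuclease and transcriptional coactivator, rose with the DBA/2J segment at chr6:28929249-28931124. CPM was 3.99, 4.57 and 4.25 in B6, 11.9 and 11 in B6-13D2, 3.04, 3.37 and 4.5 in D2 and 3.97, 4.15 and 4.92 in D2-13B6. Only the 2 B6-13D2 libraries were high. The effect was 1.43 ± 0.20 (SE, edgeR adjusted p = 3.08e-06) on the B6 background and -0.26 ± 0.19 (adjusted p = 0.35) on the D2 background. An intron of Enoph1, an enzyme gene of the methionine salvage pathway, had the same form at chr5:100051367-100051920. B6-13D2 read 4.32 and 6.08 there, and the other 9 libraries lay between 0.258 and 1.46. The interaction was 2.36 ± 0.49 (SE, edgeR adjusted p = 0.00194). Soft-masked bases made up 84.3% of the Enoph1 region and 75.6% of the Snd1 region. The intergenic region chr6:137722008-137723094, 11984 bp from Strap and printed above with 1 AP-1 match, read 1.46, 1.4 and 2.06 in B6, 5.28 and 3.94 in B6-13D2, 1.3, 2.78 and 2.81 in D2 and 3.07, 2.94 and 2.85 in D2-13B6, with an interaction of 1.85 ± 0.35.

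Of the 281 interaction calls with an effect called on the B6 background only, 243 were negative and 38 positive. The named negative regions again had an unadjusted p over 0.05 on the D2 background. At chr7:53136215-53137260, an intergenic region far from any coding gene, CPM was 6.69, 7.44 and 9.63 in B6, 0.864 and 1.59 in B6-13D2, 2.02, 0.937 and 2.12 in D2 and 2.83, 2 and 1.24 in D2-13B6. The B6 background effect was -2.69 ± 0.31 (SE, edgeR adjusted p = 8.95e-09), the D2 background effect -0.28 ± 0.25 (adjusted p = 0.472) and the interaction -2.42 ± 0.40. In an intron of the zinc finger gene Zfp141, chr7:42496666-42498155 read 23.1, 23.5 and 24.9 in B6, 9.73 and 9.92 in B6-13D2, 12.6, 9.4 and 13 in D2 and 9.59, 13.1 and 6.33 in D2-13B6. B6 stood above all other libraries. The interaction there was -1.54 ± 0.28 (SE, edgeR adjusted p = 0.000584), and 68.8% of the bases of the region were soft-masked.

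The third loss, chr15:51111524-51112184, is the region printed above with the 16-base sequence at 2 places. It lies between genes, 221061 bp from Trps1, a gene for a GATA-type repressor, and 91.1% of its bases are soft-masked. It read 4.62, 4.88 and 4.51 in B6, 1.18 and 0.498 in B6-13D2, 1.25, 1.02 and 0.974 in D2 and 1.25, 1.36 and 0.894 in D2-13B6. The interaction was -2.33 ± 0.42 (SE, edgeR adjusted p = 0.000626). The second window with these letters, chr12:58858068-58858925, fell on both backgrounds by unequal amounts. It read 5.56, 6.28 and 5.91 in B6, 1 and 1.54 in B6-13D2, 1.74, 1.63 and 1.75 in D2 and 2.6, 3.18 and 2.17 in D2-13B6. The effect was -2.22 ± 0.28 (SE, edgeR adjusted p = 8.08e-08) on the B6 background and -0.64 ± 0.22 (adjusted p = 0.0243) on the D2 background.

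The 16 bases AGACCTCTGGTGAGTG were picked as the run most shared by the 273 negative regions with an effect called on the B6 background, of which 90 (33.0%) held them, so their link to that class is a description. Over all regions tested, 1778 (0.837%) held them in the central window, with a median soft-masked content of 95.5%. With the DBA/2J segment, 248 of these fell and 0 rose on the B6 background (edgeR adjusted p under 0.05; 0.316% and 0.0838% of all regions), and 321 fell and 3 rose on the D2 background (15% and 8.05%). The median effect was -0.83 on the B6 background and -0.48 on the D2 background, and the interaction was negative at 103 and positive at 6. The 248 and the 103 both include the 90 regions by which the run was picked, so these counts are a description too. The 1778 regions took 0.285% to 0.305% of counts in B6, 0.143% to 0.153% in B6-13D2, 0.119% to 0.141% in D2 and 0.157% to 0.176% in D2-13B6. B6 was the high line, and the D2-13B6 libraries lay above all D2 libraries. How alike these regions are beyond the 16 bases was not measured.

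A second run of 16 bases, AGGAAATTAGTCTGAA, was the most shared among negative regions called on the D2 background only, in 78 of 2761 (2.83%) against 0.910% of all. It was more frequent in the 273 negative regions with an effect called on the B6 background, where 49 (17.9%) held it. Median CPM over its 1932 regions was 1.38 in B6, 1.09 in B6-13D2, 0.733 in D2 and 0.535 in D2-13B6. The interaction was negative at 176 (9.11%) and positive at 3.

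An effect called on the D2 background, with an unadjusted p over 0.05 on the B6 background, took 2 forms among the regions with the smallest p. In the first, D2 alone differed from the other 3 lines. At chr10:81978647-81978885, intergenic and 48167 bp from Zfp781, D2 had 1, 4 and 2 counts, while the other libraries had 24 to 74. The D2 background effect was -4.53 ± 0.46 (SE, edgeR adjusted p = 3.12e-11), the B6 background effect -0.03 ± 0.32 and the interaction 4.49 ± 0.59. At chr9:19092507-19094146, 26236 bp from the olfactory receptor gene Olfr836, D2 was the high line, at 19.8, 17 and 20.3. The other 8 libraries lay between 3.96 and 5.43, and the interaction was -2.17 ± 0.28 (SE, edgeR adjusted p = 3.36e-06). At chr4:4549146-4552061, intergenic, D2 read 21.4, 19.9 and 26.1 against 4.39 to 8.18 in the others. At chr1:46649156-46651256, on an exon of the dynein gene Dnah7c, D2 read 16, 12.6 and 17.6 against 2.89 to 4.94. D2-13B6 shares the DBA/2J background with D2, but at these 4 regions it lay nearer to the B6 background lines than to D2.

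In the second form D2-13B6 was the highest line, D2 came next and both B6 background lines were lowest. An intron of Rabgap1l, a gene for a Rab GTPase-activating protein, read 3.49, 4.09 and 5.17 in B6, 5.46 and 5.58 in B6-13D2, 8.43, 11.6 and 9.31 in D2 and 22.7, 38.1 and 26.8 in D2-13B6 at chr1:160520597-160521606. The interaction was 1.96 ± 0.29 (SE, edgeR adjusted p = 4.84e-05). An intron of Cmklr1, the gene for a chemerin receptor, read 8.94, 15.4 and 11.2 in D2-13B6 at chr5:113629140-113629585, against 1.1 to 4.66 in the other 8 libraries, with an interaction of 2.23 ± 0.34. Library 2 was the highest of the D2-13B6 libraries at both.

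**Figure D4:**
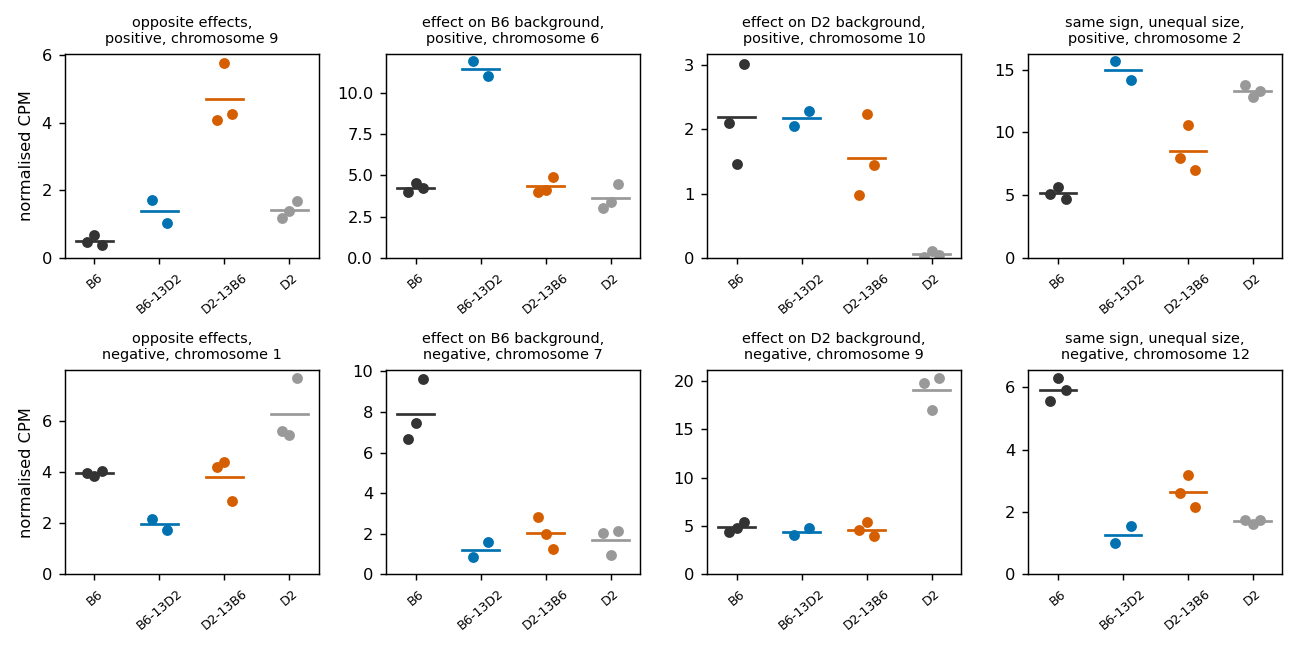
Normalised CPM (y axis) by line (x axis) at 8 called regions, 1 positive (top) and 1 negative (bottom) for each class of effect; each point is a library and each bar the mean of a line. The panels show which line stands apart, for example D2 alone at 1, 4 and 2 counts on chromosome 10 and B6 alone on chromosome 7.

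Promoter regions, those within 1000 bp of the start of any annotated gene, coding or not, had 1025 positive (3.14%) and 494 negative (1.51%) calls among 32641. Among those at coding genes, the 5 positive ones with the smallest p were at Dnajc18, Adam22, St3gal6, Slc1a2 and C2cd2. At Slc1a2, the gene for a glutamate transporter, chr2:102760250-102760634 read 1.53, 0.793 and 2.06 in B6, 2.23 and 2.19 in B6-13D2, 2.65, 3.45 and 3.87 in D2 and 8.47, 10.9 and 8.67 in D2-13B6. The interaction was 2.04 ± 0.34 (SE, edgeR adjusted p = 0.000293). C2cd2 differed from this, since B6-13D2 (2.73 and 3.09) and D2-13B6 (2.7, 3.36 and 2.51) were both above the parental lines (1.06 to 1.74). The 5 negative ones at coding genes were at Rpl10l, Mtcl1, Adad2, Gm49358 and Gm11116. The region of Gm49358, chr10:86760910-86763419, lies 553 bp from the start of that gene and on an exon of Ttc41. It read 21.2, 19.5 and 20 in B6, 19.5 and 21.7 in B6-13D2, 18.9, 16.8 and 18.3 in D2 and 7.59, 7.61 and 8.36 in D2-13B6. D2-13B6 alone was low there, and the interaction was -1.17 ± 0.25 (SE, edgeR adjusted p = 0.00233).

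Promoters of the naive pluripotency list, genes that mark the ground state of embryonic stem cells, were measured at 24 regions of 13 genes. The interaction was called positive at 0 and negative at 1, in Esrrb, a nuclear receptor gene. There chr12:86500251-86506911 read 70.7, 68.7 and 67.5 in B6, 63.9 and 72.1 in B6-13D2, 55.5, 48.9 and 44.7 in D2 and 26.4, 27.7 and 28.9 in D2-13B6. The interaction was -0.87 ± 0.25 (SE, edgeR adjusted p = 0.0228), lost in 9 of 20 alternatives. D2-13B6 was lower than D2 at 12 of the 24 regions (7.73% of all promoter regions were higher in D2) and at 0 was it higher (at 1 with RLE size factors or promoter-based factors). At a minimum fold of 1.5 the count of 12 went to 0. The core pluripotency list gave 1 negative call of 10 regions, at Pou5f1, the gene for OCT4, and D2-13B6 was lower than D2 at 7 (at 0 with a minimum fold of 1.5, at 2 with RLE size factors or without D2 library 1, and at 4 with DESeq2 or without D2-13B6 library 1). The Pou5f1 region read 31.2, 37.6 and 35.8 in D2-13B6, and the line means were 57.4 in D2, 70.7 in B6 and 67.2 in B6-13D2. Its interaction was -0.79 ± 0.25 (SE, edgeR adjusted p = 0.0419), also lost in 9 of 20. With promoter-based factors, negative calls numbered 10 of 24 and 6 of 10, and with RLE 0 and 0. The median interaction of both lists was below 0 under all 5 scalings.

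Fibroblast and feeder markers moved the other way. Of 16 listed genes, 13 had a promoter region, 22 regions in all, and 15 were higher in D2-13B6 than in D2 (15% of all promoter regions were) while 0 were lower. At a minimum fold of 1.5 the count of 15 went to 1. Their summed CPM was 213.7 to 223.9 in B6, 200.9 to 207.0 in B6-13D2, 281.0 to 294.5 in D2 and 358.4 to 512.6 in D2-13B6. No region was at 0 in any line, and Lum, Col1a1 and Col3a1 had no promoter region among those described. The interaction was called positive at Dcn, the gene for the matrix proteoglycan decorin, and at Prrx1, a mesenchymal homeobox gene. Dcn read 1.46, 2.01 and 1.36 in B6, 2.05 and 1.84 in B6-13D2, 2.59, 2.68 and 2.69 in D2 and 5.25, 7.94 and 5.23 in D2-13B6. The interaction there was 1.51 ± 0.35 (SE, edgeR adjusted p = 0.00502). Summed CPM of the core pluripotency list was 143.5 to 167.5 in D2-13B6 against 208.2 to 238.0 in D2 and 244.7 to 265.6 on the B6 background. That of the naive pluripotency list overlapped, at 493.0 to 619.5 in D2-13B6, 589.1 to 643.7 in D2 and 601.0 to 641.2 on the B6 background. Higher values in D2-13B6 were not particular to the fibroblast list. The stress and growth arrest list summed to 720.5 to 1084 in D2-13B6 and 656.6 to 701.1 in D2, with 6 of 15 regions higher in D2-13B6 and 0 lower. The housekeeping list summed to 897.3 to 1386 and 829.0 to 939.0, with 5 of 20 regions higher and 1 lower. The cell type labelled for all lines is embryonic stem cell, and the promoter regions measured for these markers held counts in all 4. Counts above 0 do not by themselves show an open promoter. A change in the share of cell types cannot be told apart from a change within cells in bulk libraries, and the part of these markers in the AP-1 and other results was not tested.

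AP-1 subunit genes were themselves among the FGF and MEK targets list, where 1 of 16 regions was called positive (3 with loess offsets), against 3.14% of all promoter regions. The Fos promoter, chr12:85471688-85475861, read 29.0, 26.0 and 31.0 in B6, 25.8 and 33.0 in B6-13D2, 41.6, 40.0 and 40.8 in D2 and 68.0, 85.2 and 57.1 in D2-13B6. The interaction was 0.82 ± 0.25 (SE, edgeR adjusted p = 0.0383), and it was lost in 11 of 20 alternatives. Fosl1, another AP-1 subunit gene, had an interaction of 0.82 ± 0.29 (adjusted p = 0.068). On the list of stress and growth arrest genes, Gadd45b and Mdm2 were called positive among 15 regions, against 3.14% of all promoter regions. The Gadd45b call was lost in 12 of 20 alternatives, and the list had 1 call with total counts or promoter-based factors.

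Germline genes that are silenced by DNA methylation in most cells had the lowest list median, -0.79 over 20 promoter regions, against 0.07 over all promoter regions. It ran from -0.96 to -0.71 over the 5 scalings. The interaction was called negative at 3, Rpl10l, Tuba3a and Brdt, and positive at 0 (1.51% and 3.14% of all promoter regions). Negative calls numbered 7 with total counts and 6 with promoter-based factors. Rpl10l, a testis ribosomal protein gene, read 4.86, 7.44 and 7.35 in B6, 5.28 and 4.83 in B6-13D2, 9.31, 6.02 and 8.48 in D2 and 3.82, 3.15 and 3.03 in D2-13B6. The interaction there was -1.61 ± 0.29 (SE, edgeR adjusted p = 0.000678). D2-13B6 was lower than D2 at 7 of the 20 and higher at 0.

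The list of KRAB zinc finger corepressors and heterochromatin proteins had 3 positive calls among 51 regions and 0 negative, against 3.14% and 1.51% of all promoter regions. It had 2 positive and 3 negative calls with total counts, and 4 of each with loess offsets. The 3 positive calls were at Ehmt1, for an H3K9 methyltransferase, Cbx5, for HP1 alpha, and Mphosph8, for a subunit of the HUSH silencing complex. At Ehmt1, chr2:24807102-24807394 read 0.732, 0.427 and 0.963 in B6, 1.05 and 1.3 in B6-13D2, 0.623, 0.884 and 1.00 in D2 and 2.81, 4.27 and 2.37 in D2-13B6. The interaction there was 2.59 ± 0.47 (SE, edgeR adjusted p = 0.000622). The list median was 0.09 with TMM and 0.16 with RLE, but it was -0.09 with total counts, -0.03 with promoter-based factors and -0.0049 with loess offsets. In the formative and primed state list, 2 of 18 regions were called negative (Otx2 and Dnmt3a). Single calls were negative in Gata6 (primitive endoderm), Cdx2 (trophoblast), Pax6 (neuroectoderm), Rnf2 (polycomb), Cdx1 (WNT targets) and Usp29 (imprinted), and positive in Nnat (imprinted). Of the 20 alternatives, 11 lost the call at Gata6 and 11 that at Usp29, 8 that at Cdx2, 6 each those at Pax6 and Rnf2 and 4 that at Cdx1. The housekeeping list had 0 calls among 20 regions, as had the architectural protein, LIF and STAT3, primitive streak and 2-cell-like lists. With other scalings the LIF and STAT3 list had 3 negative calls (total counts or loess offsets), the primitive streak list 3 negative calls (total counts or promoter-based factors) and the housekeeping list 1 positive call (loess offsets). The architectural list had 1 positive call with loess offsets or promoter-based factors. At an unadjusted p under 0.05, edgeR's test passed 5 housekeeping regions, 3 of 24 architectural, 4 of 17 LIF and STAT3, 2 of 9 primitive streak and 1 of 6 2-cell-like regions, against 20.2% of all regions tested. DESeq2 called 1 architectural region and 0 in the other 4 lists.

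**Figure D5:**
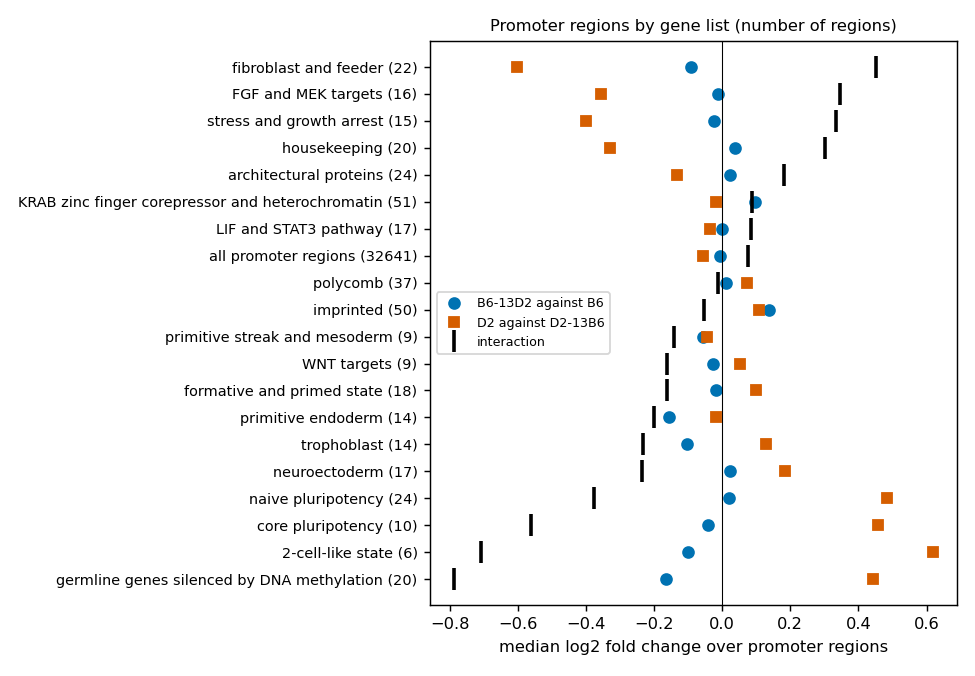
Median log2 fold change over the promoter regions of each gene list (y axis, number of regions in brackets) for B6-13D2 against B6 (blue circles), D2 against D2-13B6 (orange squares) and the interaction (black bars). The lists are ordered by their interaction median, from -0.79 for the germline list to 0.45 for fibroblast and feeder, and the B6 background medians span less than the D2 background medians.

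Regions within 50000 bp of olfactory and vomeronasal receptor genes, which form large clusters silent in most cells, had a share of negative calls above that of all regions. It was 4.71% of 1295 regions for olfactory receptors and 5.55% of 631 for vomeronasal receptors, against 1.77% of all. Positive calls made up 1.24% and 0.317%, against 4.55% of all. The median interaction was -0.31 and -0.39, below 0 under all 5 scalings. The shares of calls near gene families were not matched for mean accessibility, with which the share called varied as given above. Negative calls made up 4.55% of the 242 regions near protocadherin genes. For regions near zinc finger genes of the Zfp series the shares were 3.07% positive (4.55% of all regions) and 2.01% negative among 2635. That balance turned with the scaling: 81 positive and 53 negative calls with TMM became 52 and 156 with total counts and 64 and 124 with promoter-based factors. The median of -0.07 turned to 0.01 with RLE size factors.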

How the data were processed

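Counts per region for 11 ATAC-seq libraries of 4 lines were used as the authors deposited them, as raw read counts. Per the file headers, duplicate and mitochondrial reads had been removed. The submitters' processing notes name mm10 and Trimmomatic 0.39, BWA 0.7.5, Picard 2.0.1, MACS 1.4.2, bedtools 2.9.2 and edgeR 3.34.1, without roles. The counting settings, any shift of the cut sites and the handling of multi-mapping reads are not given in the sources used here. Regions were annotated with GENCODE M21 and the GRCm38.p6 sequence, with coordinates as the table lists them. Whether its starts count from 0 or 1 is not stated, so printed windows, read with the start counted from 1, may be off by 1 base.

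One edgeR 4.0.16 quasi-likelihood model with TMM scaling and a filter on low counts was fitted over all 11 libraries in R 4.3.3, with 1 coefficient per line, and p-values were adjusted over all 246840 regions. CPM are counts scaled to a common library size with TMM factors. Motif shares use the middle 300 bases of a region. The code was checked on simulated data.

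Regions were named by rule, from the interaction calls: for opposite effects, effects on 1 background and effects of unequal size, those with the smallest p in each direction, then promoters and the leading called promoter of each gene list. The members, motifs and lists were chosen with earlier results of these data known. The example windows and the 16-base sequences were chosen after seeing the values. Alternatives covered scaling, the filter, DESeq2 1.42.0, a minimum fold, depth, a replicate block and leaving out each library.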

Additional observations from a re-analysis of the deposited data

Results flagged for a closer look

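Each group is 1 cell line, so a difference of clone cannot be told apart from a difference in the effect of the segment. D2-13B6 was the line farthest from the other 3 at 92.3% of positive interaction calls and 52.0% of negative ones. Over all regions tested that share was 48.9%, so the share among negative calls was close to it. The calls were made from these same lines, so the shares describe the calls and are no test of them. The interaction was called at 13418 regions, and the differences within the 2 backgrounds were called with opposite signs at 20 of them. Among these 20, the 6 named by rule had interaction values of 3.21 at chr9:81720183-81720430, 3.24 at chr5:58190549-58191034, 1.48 at chr9:71543113-71544296, -1.71 at chr1:3062365-3063318, -1.96 at chr19:37251671-37252771 and -1.55 at chr6:60363076-60364896. The last 3 were more accessible with the C57BL/6J segment on the B6 background and with the DBA/2J segment on the D2 background.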

How the results depend on the processing

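The interaction kept its direction at all 45 named regions under each of the 20 alternatives (scaling, filter, tool, minimum fold, depth, replicate block and each library left out), and 24 of the 45 were called in every one. Calls numbered 802 at a minimum fold of 1.5, 2994 with libraries thinned to the smallest total and between 3869 and 24287 with single libraries left out. The share of positive calls was 83.0% with RLE size factors, 39.7% with total counts, 51.1% with promoter-based factors, 69.0% with loess offsets, 81.0% with DESeq2, 86.8% at the minimum fold, 65.5% after thinning, and 55.8% to 78.4% with single libraries left out. Opposite effects numbered 7 with RLE, 37 with total counts, 6 with DESeq2, 0 at the minimum fold, 3 after thinning, and 3 to 31 with single libraries left out. The B6 background effect was called at 213 regions at the minimum fold, 270 after thinning and 290 to 1195 with single libraries left out. The D2 background effect was called at 14064 at the minimum fold and 32628 after thinning. The cause of these moves was not tested. Thinning and left-out libraries lower the counts used. Leaving out a library moved the interaction calls both ways, from 13418 to 3869 without B6-13D2 library 2 and to 24287 without D2-13B6 library 3. The replicate block gave 11718 calls, 69.2% of them positive. Replicate numbers did not pair the libraries, since 0 of 15 same-number pairs had a correlation over 0.1. With B6-13D2 at 2 libraries, leaving out either assumes that the remaining one varies like the other lines. Calls in both lists of pluripotency promoters and the AP-1 counts were added after seeing the data.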
